A study of Mus musculus with 6 samples.

Results

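The genes described here encode the amyloid precursor protein and its relatives, the β-secretase that cuts it, peptidases that degrade the amyloid-β peptide, and a secreted chaperone that binds this peptide. They are 9 of the 22086 genes counted in polysomal mRNAs of hippocampal astrocytes, namely App, Aplp1, Aplp2, Bace1, Mme, Ece1, Ece2, Ide and Clu. Membership was set by the role of each gene, at a time when earlier results of these libraries were known, so that the choice was not blind to genotype. Each gene is represented by 1 transcript, the one with most counts when all 6 libraries are pooled. All 9 genes passed the filter on low counts, Mme through its Cx43KO libraries alone.

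Polysomal mRNAs were recovered by translating ribosome affinity purification (TRAP), which pulls down ribosomes that hold an eGFP-tagged L10a protein from a tissue extract. The study asked how the deletion of connexin 43 (Cx43, encoded by Gja1) in astrocytes changes the mRNAs bound to their ribosomes. There were 3 libraries from littermates carrying tg:Aldh1L1-RPL10aGFP and Cx43 fl/fl (Cx43FL) and 3 carrying tg:Aldh1L1-RPL10aGFP, Cx43 fl/fl and also Gfap Cre (Cx43KO), all from the hippocampus of mice aged 6 weeks. Both groups thus carried the floxed Cx43 alleles and the tagged ribosomal protein, kept heterozygous and driven by Aldh1l1, and only Cx43KO carried the Cre recombinase, driven by the human Gfap promoter. What is recovered depends on where Aldh1l1 drives the tag, and recombination on where the Gfap promoter is or was active. Whether each library came from 1 mouse is not stated in the sources used here, so that the p-values measure the spread between libraries, which may in part be technical.

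The counts on genes ranged from 14787303 to 15391214 in the Cx43FL libraries and from 16056347 to 34733473 in the Cx43KO libraries, which were thus deeper. Gja1 had 82.3 to 92.0 CPM (counts per M counts on tested genes, after scaling between libraries) in Cx43FL and 87.2 to 98.4 CPM in Cx43KO, and its log2 fold change was 0.08 (standard error 0.28). A lower level of the targeted gene was not seen, and Cx43FL and Cx43KO below mean the libraries so labelled, in every direction given. Counts cover the whole transcript of 2 exons and do not show whether the deleted part was read. Astrocyte markers were abundant, with summed levels of 25407 to 29946 CPM in Cx43FL and of 13077, 25182 and 36300 CPM in Cx43KO replicates 1 to 3. Of these 9 markers, 2 were lower and 0 higher in every Cx43KO library, beside 7.45% and 8.08% of all tested genes. Their median log2 fold change was -0.14. Markers of other cell types were also counted. The 12 neuron markers summed to 1772 to 2409 CPM in Cx43FL, against 5460, 2369 and 3782 CPM in Cx43KO replicates 1 to 3. The 5 choroid plexus markers summed to 9881, 456 and 15263 CPM in Cx43FL replicates 1 to 3 and to 22043 to 32828 CPM in Cx43KO. The labels do not name a library batch, and the deposited libraries are numbered in a separate range for each genotype, and batch and genotype cannot be told apart.

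Amyloid-β is released from the amyloid precursor protein when β-secretase and then γ-secretase cut it, whereas α-secretases cut inside the peptide and prevent its formation. Once released, it is degraded by peptidases, among them neprilysin, the endothelin-converting enzymes and the insulin-degrading enzyme, or bound by chaperones and taken up by cells. Astrocytes are known to secrete such chaperones and to take up and degrade amyloid-β, while the precursor is best known as an abundant protein of neurons.

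Of the 9 genes, 4 had each Cx43KO library above all Cx43FL libraries, namely the 3 precursor genes App, Aplp1 and Aplp2 and the neprilysin gene Mme, and 0 were lower in every Cx43KO library. Among all tested genes, 8.08% were higher and 7.45% were lower in every Cx43KO library. The genes were chosen with earlier results of these libraries known, and nothing is read from this difference. Bace1, Ece1, Ece2, Ide and Clu overlapped between genotypes. The count was 3 with upper-quartile factors, under which Aplp2 overlapped, and 5 with DESeq2 size factors, under which Bace1 no longer did, where 6.93% and 8.01% of all tested genes were higher in every Cx43KO library. None of the 9 genes passed edgeR's quasi-likelihood test at an adjusted p-value below 0.05, a threshold that 0.00738% of all tested genes passed upward together with a mean normalized count above 50, and 4 of the 9 had an unadjusted p-value below 0.05, against 5.63% of all tested genes that were higher and 2.64% that were lower at this threshold with the same mean count. DESeq2 with its normal prior called App and Mme higher, against 0.827% of all genes for which it gave an adjusted p. Both genes are in the list of upregulated genes that the study chose on these same libraries, so that their separation is a description and not independent evidence.

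The start regions of the 4 genes whose libraries did not overlap are shown because these genes were higher together. For 7 of the 9 genes a RefSeq promoter window was available, with none for Bace1 and Clu. Each sequence below holds the 140 bases just before the annotated start of the gene (for Mme, of the transcript used), 5′ to 3′ on the strand of the gene, from RefSeq's GRCm38.p6, with capitals for the GC box GGGCGG on either strand. They lie at chr16:85173767-85173906 (minus strand) for App, chr7:30445536-30445675 (minus strand) for Aplp1, chr9:31211816-31211955 (minus strand) for Aplp2 and chr3:63295955-63296094 (plus strand) for Mme.
App: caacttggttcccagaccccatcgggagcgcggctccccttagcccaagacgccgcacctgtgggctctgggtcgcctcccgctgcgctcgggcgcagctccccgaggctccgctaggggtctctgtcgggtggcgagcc
Aplp1: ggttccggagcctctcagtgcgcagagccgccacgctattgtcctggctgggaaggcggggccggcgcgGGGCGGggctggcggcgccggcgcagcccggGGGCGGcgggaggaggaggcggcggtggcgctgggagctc
Aplp2: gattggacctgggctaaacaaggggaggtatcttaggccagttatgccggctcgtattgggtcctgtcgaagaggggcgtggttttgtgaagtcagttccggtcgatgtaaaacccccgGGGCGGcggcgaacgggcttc
Mme: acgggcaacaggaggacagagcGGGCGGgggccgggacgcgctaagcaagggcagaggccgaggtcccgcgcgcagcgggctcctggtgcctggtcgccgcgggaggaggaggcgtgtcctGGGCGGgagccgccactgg
The GC box occurred 2 times for Aplp1, 1 time for Aplp2, 2 times for Mme and 0 times for App, and 28.0% of the 32851 RefSeq windows of the same length held it. GC content was 72.1% for App, 80.0% for Aplp1, 58.6% for Aplp2 and 76.4% for Mme, all above the median of 54.3% over these windows. TTCNNNGAA, the letters bound by STAT factors, and the TATA box TATAAA, each searched on both strands, were found in 0 of the 4 sequences, and in 3.75% and 7.21% of all windows. The motifs share no bases with each other in these sequences, since only the GC box was found. A match of letters is a description of the sequence and not a binding site.

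To set genes of different length side by side, counts were divided by the length of the transcript and given as CPM per kb. In Cx43FL, the level of Clu was 814 ± 205 CPM per kb (SD, n = 3 libraries), above that of 99.7% of tested genes. Clu encodes clusterin, an extracellular chaperone secreted by astrocytes. The next levels were 63.4 ± 21.7 for Aplp1, 39.2 ± 8.58 for Aplp2 and 35.1 ± 7.35 for Ide, in CPM per kb. App and Bace1 followed with 15.5 ± 2.24 and 14.8 ± 0.910 CPM per kb, above 67.1% and 66.1% of tested genes. Ece1 had 6.01 ± 4.01 and Ece2 2.99 ± 1.08 CPM per kb. Mme was last with 0.069 ± 0.10 CPM per kb, above 0.251% of tested genes. This share depends on the filter on low counts, which Mme passed through its Cx43KO libraries alone. Along this order the libraries of Aplp1 and Aplp2, of Aplp2 and Ide, of App and Bace1, and of Ece1 and Ece2 overlapped, whereas those of Clu and Aplp1, of Ide and App, of Bace1 and Ece1, and of Ece2 and Mme did not. This order is that of 1 transcript for each gene. With transcripts summed, Aplp2 at 35.1 and Ide at 31.0 CPM per kb stood above Aplp1 at 28.3. Ece2 at 5.75 then stood above Ece1 at 3.02, while Clu at 691 stayed first and Mme at 0.031 CPM per kb last. Such sums count shared reads more than once. The 2 Aplp2 transcripts differed by 1 to 47 counts in each library and 2 of the Ece2 transcripts by 0, while Aplp1 had 1 transcript. The summed values are thus not read as another order of levels.

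**Figure D1:**
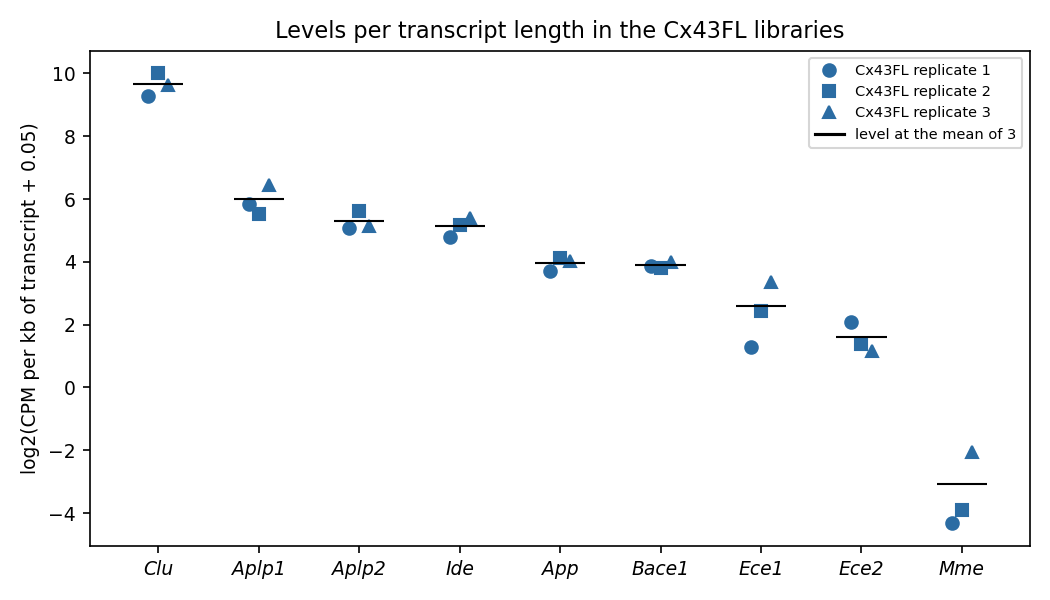
Level of each of the 9 genes in the 3 Cx43FL libraries, as log2 of CPM per kb of transcript plus 0.05 (vertical axis), with 1 symbol for each replicate and a line at the level of the mean. Clu stands far above the other genes at a mean of 814 CPM per kb, and Mme far below them at 0.069 CPM per kb.

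App encodes the precursor from which amyloid-β is cut. Its transcript App-201 lies on chromosome 16 of GRCm38 (the build of the authors' mm10 mapping) from 84954443 to 85173758, on the minus strand, with 16 exons, and is the 1 App transcript in the counts. App had 625, 829 and 785 counts in replicates 1 to 3 of Cx43FL, against 3956, 2317 and 5952 counts in those of Cx43KO. Scaled by library these were 41.2, 55.0 and 51.1 CPM in Cx43FL, against 246, 93.1 and 184 CPM in Cx43KO. The lowest Cx43KO library, replicate 2, lay above the highest Cx43FL library, while the Cx43KO libraries spread far more widely among themselves than those of Cx43FL. The normalized count of App averaged 974 ± 141 in Cx43FL, against 3454 ± 1521 in Cx43KO (SD, 3 libraries in each). The log2 fold change of App was 1.83 (standard error 0.38, 95% interval 0.99 to 2.66), and edgeR's quasi-likelihood test gave it a Benjamini-Hochberg adjusted p of 0.490, DESeq2 with its prior one of 0.00644. With an exact 2-sided permutation test, p was 0.1, the smallest that 3 libraries against 3 allow.

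Aplp1 and Aplp2 encode the amyloid precursor-like proteins, which are cut by the same secretases but hold no amyloid-β sequence. Aplp1 (Aplp1-201, chromosome 7, 30434982 to 30445535, minus strand, 17 exons) had 134, 107 and 205 CPM in replicates 1 to 3 of Cx43FL, against 266, 311 and 289 CPM in those of Cx43KO. Aplp2 (Aplp2-201, chromosome 9, 31149557 to 31211791, minus strand, 17 exons) had 122, 178 and 127 CPM in Cx43FL, against 189, 226 and 296 CPM in Cx43KO. For both genes the groups did not overlap, but the gap between the highest Cx43FL and the lowest Cx43KO library was narrow for Aplp2. With upper-quartile factors the Aplp2 libraries overlapped, the lowest of Cx43KO being at 173 and the highest of Cx43FL at 177 CPM. Aplp1 differed by 0.96 on the log2 scale (standard error 0.31, 95% interval 0.28 to 1.64, adjusted p = 0.538 in edgeR's test). Aplp2 differed by 0.73 (standard error 0.30, 95% interval 0.08 to 1.39, adjusted p = 0.562). DESeq2 with its prior gave adjusted p-values of 0.183 and 0.370. In contrast to App, the Cx43KO libraries of Aplp1 lay close together, at 289 ± 22.4 CPM against 149 ± 50.9 CPM in Cx43FL (SD, n = 3 libraries each).

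Over the 6 libraries, the Pearson correlation on log2 of CPM plus 0.5 was 0.728 between App and Aplp1, 0.739 between App and Aplp2, and 0.603 between Aplp1 and Aplp2. As the 3 genes were each higher in every Cx43KO library, these values in part restate the genotype difference. Within Cx43KO the order of the libraries differed between the 3 genes. Cx43KO replicate 1 had the highest App but the lowest Aplp1 and Aplp2 of its genotype. Cx43KO replicate 2, with the lowest App of its genotype, had the highest Aplp1. Among the 3 precursors, per kb, App made up 12.5%, 15.5% and 11.6% of the reads in replicates 1 to 3 of Cx43FL, against 31.8%, 13.1% and 22.0% in those of Cx43KO. These shares overlapped between genotypes (exact 2-sided permutation test, p = 0.2). Aplp1 held the greater part in 5 of the 6 libraries, at 40.7% to 63.2% over all libraries, and in Cx43FL replicate 2 Aplp2 held 43.8% against 40.7% for Aplp1. With the transcripts of each gene summed, Aplp2 had 49.99% against 40.2% for Aplp1 in Cx43FL and 41.9% against 40.3% in Cx43KO. This sum counts most Aplp2 reads more than once, since its 2 transcripts had nearly the same counts. App and Aplp1 had 1 transcript each, and the summed shares are thus not read as a greater part for Aplp2.

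Bace1 encodes β-secretase 1, whose cut begins the release of amyloid-β. Bace1 (Bace1-201, chromosome 9, 45838580 to 45864399, plus strand, 9 exons) had 89.1, 84.4 and 95.4 CPM in replicates 1 to 3 of Cx43FL, against 97.5, 95.01 and 115 CPM in those of Cx43KO. Cx43KO replicate 2 lay just below Cx43FL replicate 3, so that the groups overlapped at this point, which they did not with DESeq2 size factors. The difference was 0.19 on the log2 scale (standard error 0.28, 95% interval -0.43 to 0.81, adjusted p = 0.851 in edgeR's test). Of its 6058 exon bases, 975 are shared with Rnf214 on the opposite strand, and the counting is not stated to use strand, so that reads of both genes cannot be told apart there. Per kb, the ratio of Bace1 to App was 1.13, 0.805 and 0.978 in replicates 1 to 3 of Cx43FL, against 0.208, 0.535 and 0.327 in those of Cx43KO. This ratio was lower in every Cx43KO library (p = 0.1 by the exact 2-sided permutation test, the smallest possible), with App differing by 1.83 and Bace1 by 0.19 on the log2 scale.

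**Figure D2:**
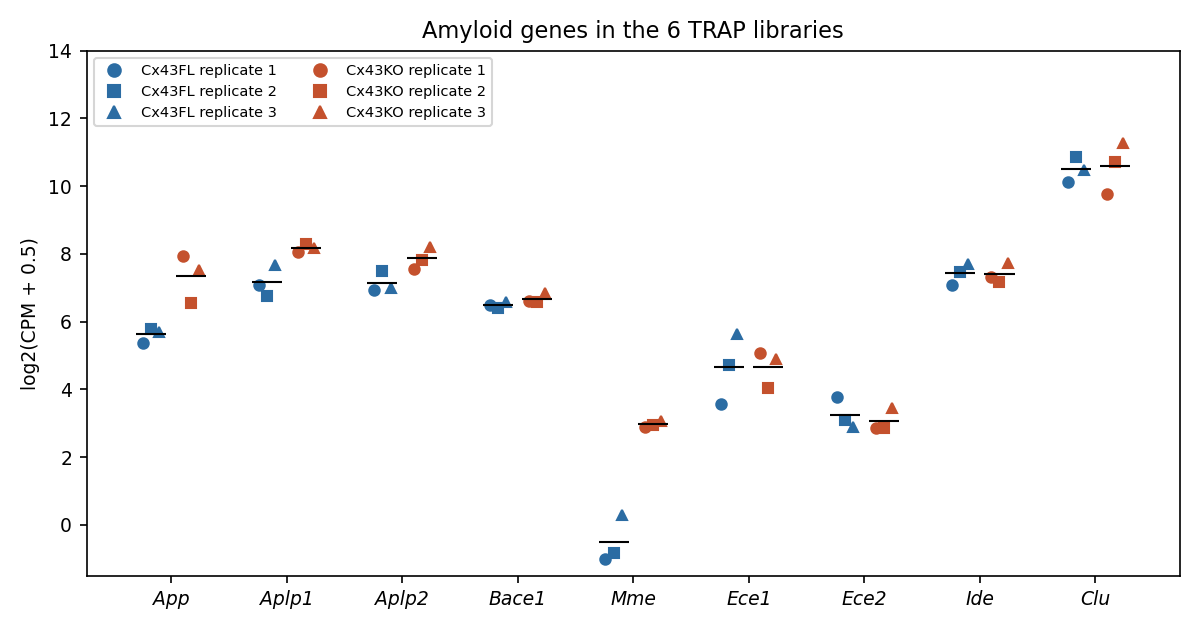
Values of the 9 genes in the 6 TRAP libraries, as log2 of CPM plus 0.5 (vertical axis), with a colour for each genotype label, a symbol for each replicate number and a line at the mean of the 3 plotted values. The 3 Cx43KO libraries lie above the 3 Cx43FL libraries for App, Aplp1, Aplp2 and Mme, and the libraries overlap for the other genes, except that Aplp2 overlaps with upper-quartile factors and Bace1 does not with DESeq2 size factors.

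Mme encodes neprilysin, a membrane metallopeptidase and a major amyloid-β-degrading enzyme of the brain. Its transcript Mme-201 (chromosome 3, 63296095 to 63381623, plus strand, 23 exons) had 0, 1 and 11 counts in replicates 1 to 3 of Cx43FL, against 112, 178 and 254 counts in those of Cx43KO. In Cx43FL replicates 1 and 2 the counts were under the detection floor of 3 counts, which correspond to 0.198 and 0.199 CPM in these libraries and allow for counting error alone, as reads of an amplified library are not separate molecules. The levels were 0, 0.066 and 0.716 CPM in Cx43FL, against 6.95, 7.15 and 7.84 CPM in Cx43KO. Mme was thus near or below detection in Cx43FL and present at nearly the same level in the 3 Cx43KO libraries. The fitted log2 fold change of 4.77 (standard error 1.41, 95% interval 1.66 to 7.88) depends on how the near-zero Cx43FL counts are treated and rests on Cx43FL replicate 3, being 7.55 without it. The adjusted p of Mme was 0.490 in edgeR's test, 0.0252 in DESeq2 with its prior and 0.00784 in DESeq2 without it. With the exact 2-sided permutation test p was 0.1, the smallest possible. Mme was still among the low genes of Cx43KO, at 1.93 ± 0.12 CPM per kb (SD, n = 3 libraries).

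Ece1 and Ece2, of the same peptidase family, encode the endothelin-converting enzymes, which cut amyloid-β inside the cell. Ece1 (Ece1-201, chromosome 4, 137862237 to 137965229, plus strand, 20 exons) had 11.4, 25.9 and 49.6 CPM in replicates 1 to 3 of Cx43FL, against 33.5, 16.0 and 29.2 CPM in those of Cx43KO. The 3 Cx43KO values lay inside the range of Cx43FL, which was wide. Its log2 difference was -0.14 (standard error 0.57, 95% interval -1.39 to 1.10, adjusted p = 0.955 in edgeR's test), an interval that holds 0 and both directions. Ece2 (Ece2-201, chromosome 16, 20629828 to 20645915, plus strand, 19 exons) had 13.3, 8.03 and 6.90 CPM in Cx43FL, against 6.77, 6.79 and 10.3 CPM in Cx43KO, with overlapping groups and a log2 difference of -0.24 (standard error 0.66, 95% interval -1.69 to 1.22, adjusted p = 0.929). The value of Ece2 is uncertain, since 2932 of its 3152 exon bases are shared with the gene model Gm49333 on the same strand. Among its transcripts, the ratio of Ece2-203 to Ece2-202 counts was 0.757 to 1.49 in 5 libraries and 9.77 in Cx43KO replicate 3.

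Within the neprilysin family, the share of Mme was higher in every Cx43KO library. Per kb, Mme made up 0%, 0.221% and 1.49% of the reads of Mme, Ece1 and Ece2 in replicates 1 to 3 of Cx43FL, against 16.8%, 25.7% and 18.2% in those of Cx43KO (p = 0.1, the smallest possible in the exact 2-sided permutation test). As Ece1 and Ece2 themselves overlapped between genotypes, this share describes the difference of Mme again and is no separate evidence. Ece1 and Ece2 still held the greater part together in each of the 6 libraries. The other members of the family were hardly counted. Kel had 0 counts in all libraries, Mmel1 at most 2 counts, and Phex and Ecel1 at most 29 and 17 counts, and these 4 genes did not pass the filter on low counts.

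**Figure D3:**
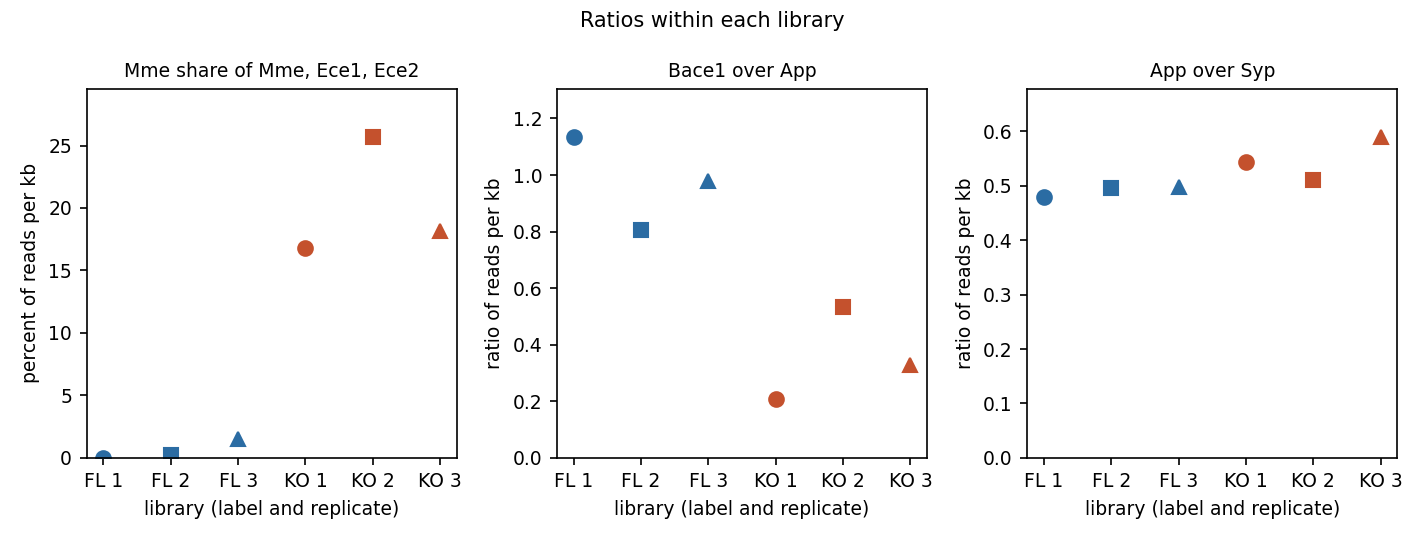
Ratios within each of the 6 libraries, from reads per kb of transcript, for the percent of Mme among Mme, Ece1 and Ece2 (left), Bace1 over App (middle) and App over the synaptic vesicle gene Syp (right). The share of Mme is at most 1.49% in Cx43FL and at least 16.8% in Cx43KO, and Bace1 over App is lower in each Cx43KO library. App over Syp, a gene picked for its likeness to App, lies between 0.480 and 0.590 and is higher in each Cx43KO library.

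Ide encodes the insulin-degrading enzyme, a cytosolic and secreted metallopeptidase that also degrades amyloid-β. Ide (Ide-201, chromosome 19, 37268743 to 37330613, minus strand, 24 exons) had 136, 177 and 209 CPM in replicates 1 to 3 of Cx43FL, against 160, 143 and 213 CPM in those of Cx43KO. The groups overlapped nearly entirely, and the log2 difference was -0.02 (standard error 0.30, 95% interval -0.67 to 0.63, adjusted p = 0.992 in edgeR's test). Clu (Clu-201, chromosome 14, 65968483 to 65981547, plus strand, 9 exons) had 1122, 1861 and 1438 CPM in Cx43FL, against 876, 1673 and 2484 CPM in Cx43KO. The lowest and the highest of the 6 values were both from Cx43KO. Clu differed by 0.19 on the log2 scale (standard error 0.38, 95% interval -0.65 to 1.03, adjusted p = 0.901), and by -0.21 without Cx43KO replicate 3. Relative to App, per kb, Clu was 47.8 to 59.4 times as abundant in Cx43FL and 6.26, 31.5 and 23.7 times in Cx43KO replicates 1 to 3, and Ide 2.06 to 2.62 times in Cx43FL and 0.416, 0.982 and 0.742 times in Cx43KO. Both ratios were lower in every Cx43KO library (exact 2-sided permutation test, p = 0.1 each, the smallest possible). As Clu and Ide themselves overlapped, these ratios, like that of Bace1 to App, describe the difference of App again and are no separate evidence.

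**Figure D4:**
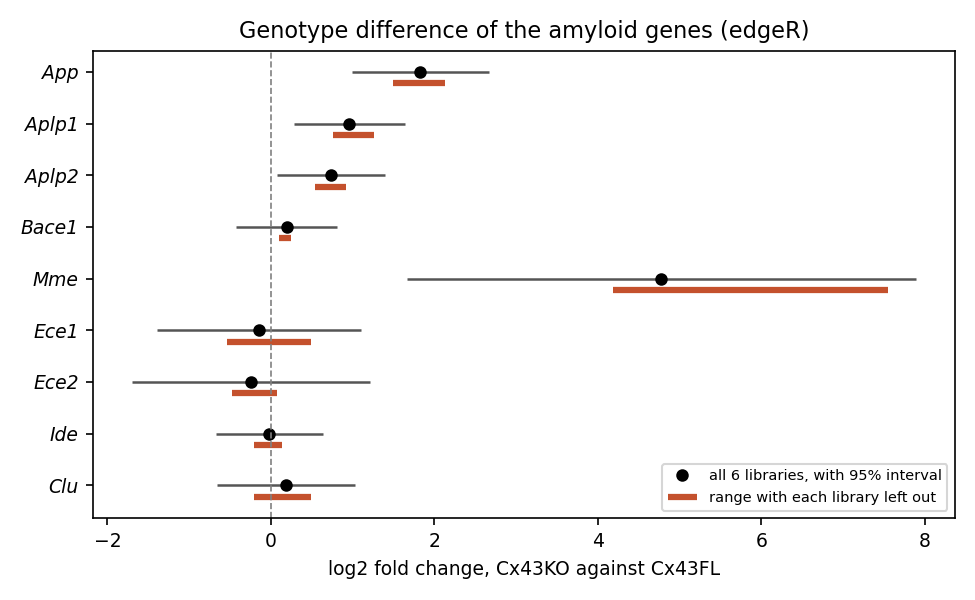
Log2 fold change of Cx43KO against Cx43FL for each of the 9 genes (horizontal axis) from edgeR, with black points for all 6 libraries, grey lines for the 95% interval and red bars for the range when each library was left out. The intervals of App, Aplp1, Aplp2 and Mme lie above 0 before adjustment over all genes, and the red bars of Ece1, Ece2, Ide and Clu cross 0.

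Leaving out each library in turn, App kept a log2 difference of 1.49 to 2.13, Aplp1 of 0.76 to 1.26, Aplp2 of 0.54 to 0.92 and Mme of 4.19 to 7.55. The adjusted p of these 4 genes in edgeR's test then lay between 0.213 and 0.934. Bace1 was higher in every Cx43KO library when Cx43FL replicate 3 or Cx43KO replicate 2 was left out, and Ece2 was lower in every Cx43KO library when Cx43KO replicate 3 was left out, as 16% of all tested genes were. App, Aplp1, Aplp2 and Mme did not overlap between genotypes in any of these 6 runs, in which 10.8% to 16.1% of all tested genes were higher in every remaining Cx43KO library.

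Neuron markers were compared with the precursor genes over the same libraries. All 12 were above 0 on the log2 scale in Cx43KO against Cx43FL, with a median of 0.84. Of these 12, beside 8.08% of all tested genes, 3 were higher in every Cx43KO library. None of the 12 was at 0 in any library. Within Cx43KO, App followed the order of the summed neuron markers, which were highest in replicate 1 and lowest in replicate 2, whereas Aplp1 was highest in replicate 2 and Aplp2 in replicate 3. In Cx43KO replicate 2 the summed neuron markers, at 2369 CPM, lay within the range of Cx43FL, and in this library App, Aplp1, Aplp2 and Mme, at 93.1, 311, 226 and 7.15 CPM, were above all Cx43FL libraries. Of this sum, 1342 CPM were Snap25, which lay within its own Cx43FL range. The 3 markers higher in every Cx43KO library, Rbfox3, Gad2 and Syp, were above all Cx43FL libraries in this replicate too. The gene closest to App over the 6 libraries was Syp, the synaptic vesicle protein synaptophysin, itself among these markers, with a Pearson correlation of 0.999 on log2 of CPM plus 0.5, followed by Sptlc2 at 0.994. Syp had 70.0, 90.4 and 83.8 CPM in replicates 1 to 3 of Cx43FL, against 369, 149 and 254 CPM in those of Cx43KO. These genes were singled out after their values had been seen, the 6 points share libraries and their depth, and Syp too is in the list the study chose on these libraries. Per kb, App over Syp was 0.480 to 0.498 in Cx43FL and 0.511 to 0.590 in Cx43KO, and thus higher in every Cx43KO library. The range is narrow beside the change in either gene, but Syp was picked for its likeness to App, and nothing is read from it. Against Snap25, another synaptic gene, App was 0.0203 to 0.0254 in Cx43FL and 0.0439 to 0.0593 in Cx43KO. The part of neuronal mRNA in the differences of the precursor genes was not tested. In such bulk samples, more cells of a type and more RNA for each cell cannot be told apart.

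Choroid plexus markers were also higher in Cx43KO, with 5 of 5 above Cx43FL in every library, beside 8.08% of all tested genes. Cx43FL replicate 2, with the lowest choroid plexus sum at 456 CPM and 1 of the markers at 0 counts, had the highest App, Aplp2 and Clu and the lowest Aplp1 and Bace1 of the Cx43FL libraries, and both Aplp1 and Bace1 ordered these libraries as the choroid plexus sum did. Neither gene did so in Cx43KO, where this sum was 32828, 26185 and 22043 CPM in replicates 1 to 3, against 266, 311 and 289 CPM for Aplp1. Microglia markers summed to 27.5 to 50.5 CPM in Cx43FL, against 80.3 to 131 CPM in Cx43KO, and 2 of 8 had a library at 0. Of the 7 tested, 3 were higher and 0 lower in every Cx43KO library, beside 8.08% and 7.45% of all tested genes. Endothelial markers, at 3.45 to 7.64 CPM in Cx43FL, against 5.63 to 13.9 CPM in Cx43KO, and mural and fibroblast markers, at 42.3 to 66.4 and 43.2 to 137 CPM, were low and overlapped. Oligodendrocyte markers summed to 591 to 1015 CPM in Cx43FL, against 2662, 1005 and 610 CPM in Cx43KO replicates 1 to 3. The part of these cells in the level of Mme or of the precursor genes was not tested.

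Outside the lists of amyloid genes and of cell type markers, the genes closest to Mme in pattern over the 6 libraries were Cacng8, Trp53inp2, Cdkn3, Isyna1 and Trrap. Their Pearson correlations with Mme were 0.982 to 0.992 on log2 of CPM plus 0.5. The points share libraries and depth, so that these values describe the likeness only. Cacng8, a subunit that accompanies AMPA receptors, had 0.527 to 1.37 CPM in Cx43FL, against 4.26 to 5.59 CPM in Cx43KO. Trp53inp2 had 652 to 746 CPM in Cx43FL, against 909 to 951 CPM in Cx43KO, a much smaller ratio between genotypes than that of Mme. Within the 9 genes, Mme correlated at 0.945 with Aplp1 and at 0.882 with App, and at 0.199 and -0.40 with Ece1 and Ece2. Mme, Aplp1 and App were each higher in every Cx43KO library, so that their correlations in part restate the genotype difference.

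In addition to the 9 genes, 54 genes of precursor processing and of amyloid-β clearance were listed by role, of which 42 could be tested. Of these 42, 14 were higher and 0 were lower in every Cx43KO library, against 8.08% and 7.45% of all tested genes. Their median log2 fold change was 0.57, against 0.19 for the 9 genes and 0.07 for all tested genes. None of them passed edgeR's test after adjustment. In this test 10 had an unadjusted p-value below 0.05 with a higher level in Cx43KO and 0 with a lower one. This stood against 5.63% and 2.64% of all tested genes, all with a mean normalized count above 50. DESeq2 with its prior called 2 higher, Pigz among these, against 0.827% of all genes for which it gave an adjusted p. The list was written with earlier results of these libraries known, and these counts are a description.

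Among the secretases, Bace2, the relative of Bace1, had 10, 21 and 2 counts in replicates 1 to 3 of Cx43FL, against 56, 51 and 74 counts in those of Cx43KO, with a log2 difference of 1.83 (standard error 1.23, adjusted p = 0.665 in edgeR's test). All 3 α-secretase genes, Adam9, Adam10 and Adam17, overlapped between genotypes, with log2 differences of 0.23 to 0.58. Of the γ-secretase genes, Ncstn and Aph1a were higher in every Cx43KO library, by 1.10 and 0.78 on the log2 scale, although Aph1a overlapped with upper-quartile factors. Psen2, a catalytic subunit, was at -0.74, and Psenen and Aph1b at -0.16 and -0.02, all with overlapping libraries. Genes of 1 enzyme complex thus lay on both sides of 0, none of them past the adjusted threshold.

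Beside 8.08% of all tested genes, 2 of the 12 genes for sorting of the precursor and for its adaptors were higher in every Cx43KO library. These were Sorl1 and Sort1, encoding sorting receptors that direct the precursor and its secretases through the endosome, at 1.30 (standard error 0.38) and 1.36 (standard error 0.37), both with an adjusted p of 0.490 by edgeR. Itm2b, whose product binds the precursor, was abundant at 252 CPM per kb in Cx43FL and differed by 0.09. Among peptidases other than those of the neprilysin family, 4 of 8 tested were higher in every Cx43KO library, beside 8.08% of all tested genes. These 4 were Nrd1, Ace and the lysosomal cathepsins Ctsb and Ctsd, by 0.86 to 1.31 on the log2 scale. Plg and Plau, of the plasmin system, and Mmp9 were hardly counted and not tested.

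Of the 4 chaperone genes, 3 had the highest levels of the list. Cst3, which encodes the protease inhibitor cystatin C, had 3720 CPM per kb and Apoe, which encodes the main apolipoprotein of astrocytes, 956 CPM per kb in Cx43FL, beside 814 CPM per kb for Clu. These 3 genes and A2m overlapped between genotypes, with log2 differences of -0.16 for Cst3, 0.21 for Apoe, 0.19 for Clu and 1.18 for A2m. Of the genes for uptake and export, Lrp1 and Abca1 were higher in every Cx43KO library. Abca1, a cholesterol exporter that loads lipid onto apolipoproteins, differed by 1.39 (standard error 0.52, adjusted p = 0.550 in edgeR's test). Pigz, which the study places in the same class as Mme and which encodes an enzyme of glycosylphosphatidylinositol anchors, had 7, 2 and 4 counts in Cx43FL, against 165, 26 and 213 counts in Cx43KO. Its log2 difference was 4.35 (standard error 1.28), with adjusted p-values of 0.490 by edgeR and 0.0344 by DESeq2 with its prior, and Pigz too is in the list chosen by the study on these libraries.

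**Figure D5:**
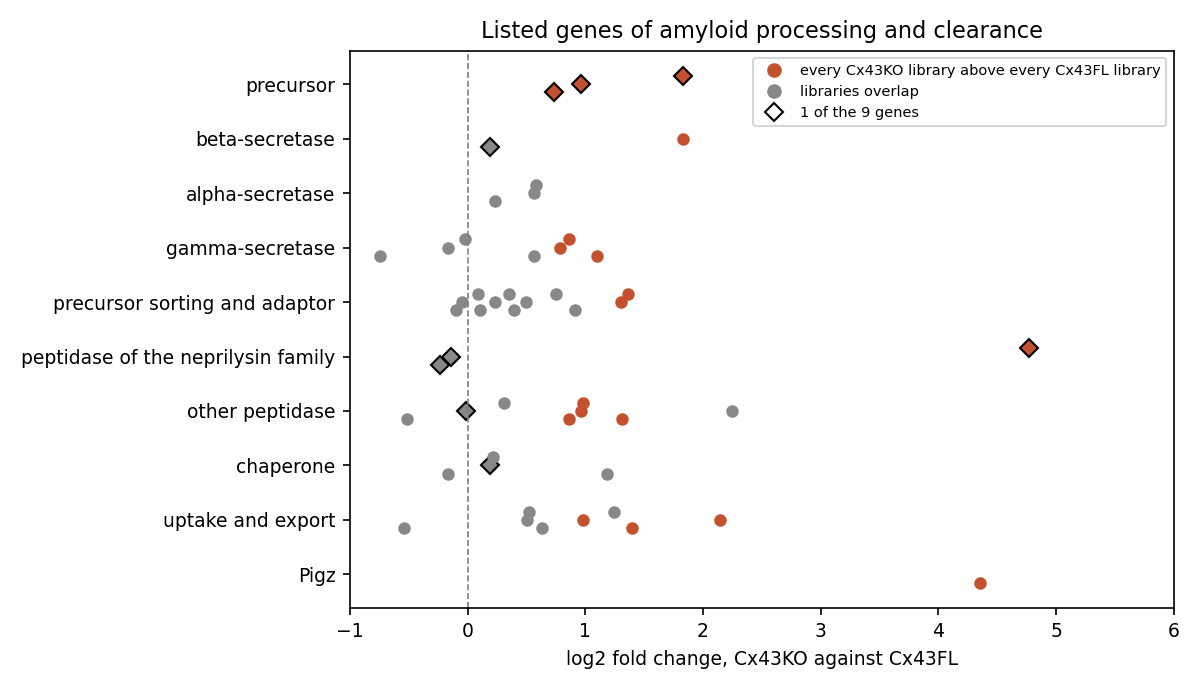
Log2 fold change of Cx43KO against Cx43FL (horizontal axis) for the 51 tested genes of the list, in a row for each role, with red for genes higher in every Cx43KO library, grey for overlapping libraries and outlined diamonds for the 9 genes. Precursors are all red (Aplp2, like the γ-secretase gene Aph1a, overlaps with upper-quartile factors), α-secretases and chaperones all grey, and no gene lies lower in every Cx43KO library.

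Several genes have more than 1 transcript in the counts, and some reads were counted on more than 1 of them. Ece2-201 and another Ece2 transcript had identical counts in all 6 libraries, and Aplp2-201 and Aplp2-202 differed by 1 to 47 counts. App, Aplp1 and Mme had 1 transcript each, so that a switch between isoforms of these genes could not be seen. When every transcript was tested on its own, the 6 Bace1 transcripts, of which 5 were tested, ranged from -0.13 to 0.48 on the log2 scale, the 5 Ide transcripts from -0.24 to 0.30 and the 9 Clu transcripts from 0.00 to 0.18. The lowest adjusted p over the transcripts of the 9 genes was 0.692 in edgeR's test, for App, Aplp1 and Mme.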

How the data were processed

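Polysomal mRNAs of hippocampal astrocytes were read out in 3 libraries of Cx43FL and 3 of Cx43KO. The authors amplified the RNA with NuGEN's Ovation kit, filtered reads with Eoulsan, mapped them with STAR on mm10 (Ensembl annotation), removed reads mapping more than once and counted with HTSeq-count 0.5.3. The deposited values are raw counts on Ensembl transcripts, not normalized. Groups and replicate numbers were taken from the labels.

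Of the transcripts, 73157 were matched to GENCODE on GRCm38, the same build, and 2309 were not (1.60% to 1.78% of counts). Of each gene, the transcript with most counts over all libraries was used. Genotypes were compared on 13545 genes with edgeR 4.0.16 (R 4.3.3) by TMM, filterByExpr and the quasi-likelihood F test, adjusted by Benjamini-Hochberg over all tested genes. A call required an adjusted p below 0.05 and, in the higher group, over 50 normalized counts on average. CPM are scaled by TMM over tested genes. Single genes and ratios were compared by exact 2-sided permutation tests, genes on log2 of CPM plus 0.5. DESeq2 1.42.0, other scalings and filters, the replicate block, left-out libraries, summed transcripts and other call thresholds were alternatives. The fits were tested on simulated data. Other steps ran in Python 3.11.15 with scipy 1.17.1, pandas 2.3.3 and numpy 2.4.6.

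The genes, lists and tests were chosen with earlier results of these data known. Named genes were the 9 genes, Gja1, Pigz, of the other listed genes the 3 largest rises and falls without overlap and the 3 highest levels, and the 5 genes most like Mme outside the amyloid and marker lists. Other names were added after values were seen, mostly to complete a count. Results for 2 of the listed genes are not reported here. All pairs of libraries differed beyond sampling noise (chi-square per degree of freedom at least 29.6). Per M counts on genes, 3 counts correspond to 0.0864 to 0.203 across libraries, for counting error only. Replicate numbers are not stated to mark a shared mouse, litter or day.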

Additional observations from a re-analysis of the deposited data

How the results depend on the processing

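edgeR called 1 gene higher in Cx43KO, Prm1, and 0 lower. It called 0 higher with at least 10 counts in every library or with summed transcripts, 0 to 11 with each library left out (11 without Cx43KO replicate 1), and 763 higher and 358 lower by the unadjusted p. DESeq2 called 147 higher and 27 lower without its prior, and 113 and 17 with it. A replicate block in the edgeR model gave 2 genes, Prm1 and Ighg2c. Same-numbered libraries did not deviate together (correlations -0.05 to 0.01), and this block changed no call among the amyloid genes. Of the listed genes, 0 were called by edgeR, 4 by DESeq2 with and without its prior, and 14 by the unadjusted p, all of them higher. Of all tested genes, edgeR called 0.00738% higher, and 5.63% by the unadjusted p. Of all genes with an adjusted p in DESeq2, 0.827% were called higher with its prior and 1.03% without it. App was past the threshold in DESeq2 at 1.82 without and 1.58 with the prior, and Mme at 4.81 and 2.05. Mme was removed by the filter of at least 10 counts in every library. With each library left out, Ece1 ranged from -0.54 to 0.49, Ece2 from -0.47 to 0.079, Ide from -0.20 to 0.13 and Clu from -0.21 to 0.49 on the log2 scale, and their direction was thus not stable. Aplp1, Aplp2 and Bace1 kept their direction in every alternative. Bace1 also kept its side of the threshold, whereas Aplp1 and Aplp2 passed by the unadjusted p and in no other alternative. Without Cx43FL replicate 1, 1 listed gene (Psen2), and without Cx43KO replicate 3, 3 listed genes (Ece2, Picalm and Mmp14) were lower in every Cx43KO library, against 0 with all libraries and beside 10% and 16% of all tested genes in the same runs, and of the 9 genes this count ranged from 0 to 1. Levels in Cx43FL with summed transcripts were 6.93 for App, 28.3 for Aplp1, 11.7 for Bace1 and 5.75 CPM per kb for Ece2, since reads then count on several transcripts, and the order of Aplp1, Aplp2 and Ide and that of Ece1 and Ece2 changed. Ece1 was then at 3.02 and Mme at 0.031 CPM per kb. In the same way the App share of the precursors was 9.84% in Cx43FL, with Aplp2 in place of Aplp1 as the largest share, Bace1 over App 1.71 in Cx43FL and 0.666 in Cx43KO, the Mme share 11.0% in Cx43KO, and App over Syp overlapped between genotypes. The median of all genes lay between -0.0015 and 0.11 on the log2 scale in all settings. Where calls differed between tools, the cause was not tested. Of the listed genes higher in every Cx43KO library, 16 with upper-quartile and 19 with DESeq2 size factors stood against 18. The shares of all tested genes were 6.93%, 8.01% and 8.08% in the same order. Depth limits Mme, Bace2 and Pigz in Cx43FL, where at least 1 library held 2 counts or fewer.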
